A study of Homo sapiens with 6 samples.

Results

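Transcripts of 10 ERK feedback and output genes (DUSP4, DUSP5, DUSP6, SPRY2, SPRY4, SPRED1, ETV4, ETV5, PHLDA1 and IER3) were examined in RNA-seq libraries of T98G cells, out of the 57133 gene symbols counted. The members were chosen by symbol for their place in the ERK pathway, with earlier results of these data known. All 10 symbols were found, 9 of them passed the filter on low counts, and IER3 was listed at 0 in every library. T98G is an established glioblastoma (GBM) line. Its CBX8 gene had been knocked out by CRISPR, and the 3 libraries of the control condition (CBX8 KO) come from KO cells with an empty doxycycline-inducible vector. The other 3 libraries (WT CBX8 re-expression) come from the same KO line with the vector carrying wild-type CBX8, the chromodomain subunit of Polycomb repressive complex 1. Every cell line also carried the rtTA activator, was selected with puromycin and hygromycin, and received doxycycline at 1 μg/ml for 72 h. The genotype field of the re-expression libraries reads wild type, but their titles and the methods describe KO cells, and they are treated as such. Whether the KO line was a single clone is not stated, and an effect of CBX8 cannot be told apart from a difference between the separately selected stable lines.

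In this pathway, growth factor receptors activate RAS, which turns on the kinases RAF, MEK and ERK in sequence. Active ERK switches on transcription of its own brakes, among them dual-specificity phosphatases (DUSP) that remove phosphate from MAP kinases, and Sprouty (SPRY) and SPRED proteins that act near RAS and RAF. It also switches on the ETS transcription factors ETV4 and ETV5 and other output genes such as PHLDA1 and IER3. Transcript levels of such genes are widely used as a readout of ERK signalling, and in GBM the pathway is often driven by altered receptors or by loss of the RAS inhibitor NF1.

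CBX8 had between 83 and 104 counts in the KO libraries and between 27791 and 31408 in the re-expression libraries, a log2 fold change of 8.22, so all 6 libraries match their labels. Total counts per library lay between 7950190 and 8659796. Of 10 markers of a glial or mesenchymal tumor line, 7 were above 1 CPM (counts scaled by the normalized library size), with VIM and CD44 the highest. S100B and SOX2 were at 0 counts in every library, and NES had at most 4. The glial markers GFAP and OLIG2 were low, with means of 1.82 and 1.78 CPM in CBX8 KO and 2.92 and 3.22 CPM upon re-expression. Both lay below the neuronal genes SNAP25 and MAP2 in every library. The summed level of these 10 markers was between 6177 and 6502 CPM in the KO libraries and between 5978 and 6464 CPM upon re-expression. The markers of other cell types summed to at most 3.17 CPM for 4 haematopoietic genes, 2.47 CPM for 4 epithelial genes, 0.475 CPM for 3 endothelial genes and 31.3 CPM for 4 neuronal genes.

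Re-expression of WT CBX8 left most of these genes without a detectable change. PHLDA1 fell, by 14.8%, and the other 8 tested members did not pass the test. Of 9 members tested, 0 were called higher and 1 was called lower (edgeR's quasi-likelihood test, FDR < 0.05 over the 14461 genes tested). Over all genes tested, 12.9% were called, 6.23% higher and 6.63% lower, so 1 member of 9 is close to the background. At an unadjusted p under 0.05, 0 members were higher and 2 were lower (PHLDA1 and SPRED1). Of the 14461 genes tested, 1831 were higher and 1831 lower at this threshold. DESeq2 and limma voom also called 0 members higher. The 95% interval of the change included 0 for 7 of the 9 members, and for all 9 it lay within a 2-fold change in either direction.

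PHLDA1 encodes a pleckstrin homology-like domain protein. It was by far the most abundant member and carried between 63.5% and 69.9% of the members' counts in each library. It had 302, 298 and 321 CPM in the CBX8 KO libraries and 266, 265 and 254 CPM in the WT CBX8 re-expression libraries. All re-expression libraries lay below all KO libraries, and the gap between the groups was wider than the spread within either. Mean levels were 307 ± 12.5 CPM for CBX8 KO against 262 ± 6.53 CPM for re-expression (SD, n = 3 each). The log2 fold change was -0.23 with a standard error of 0.05 (edgeR adjusted p = 0.0017). An exact permutation test on 3 against 3 libraries, two-sided, gave p = 0.1, the smallest it allows. The call held under all 18 alternatives run, with log2 fold changes between -0.25 and -0.18 and adjusted p-values between 6.73e-05 and 0.0164. The gene lies on chromosome 12 from 76025447 to 76031776 (hg38, minus strand, ENSG00000139289.15), and an antisense gene (PHLDA1-AS1) overlaps its exons. The strand setting used to count reads is not stated, so reads of the antisense RNA could be among those of PHLDA1.

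**Figure D1:**
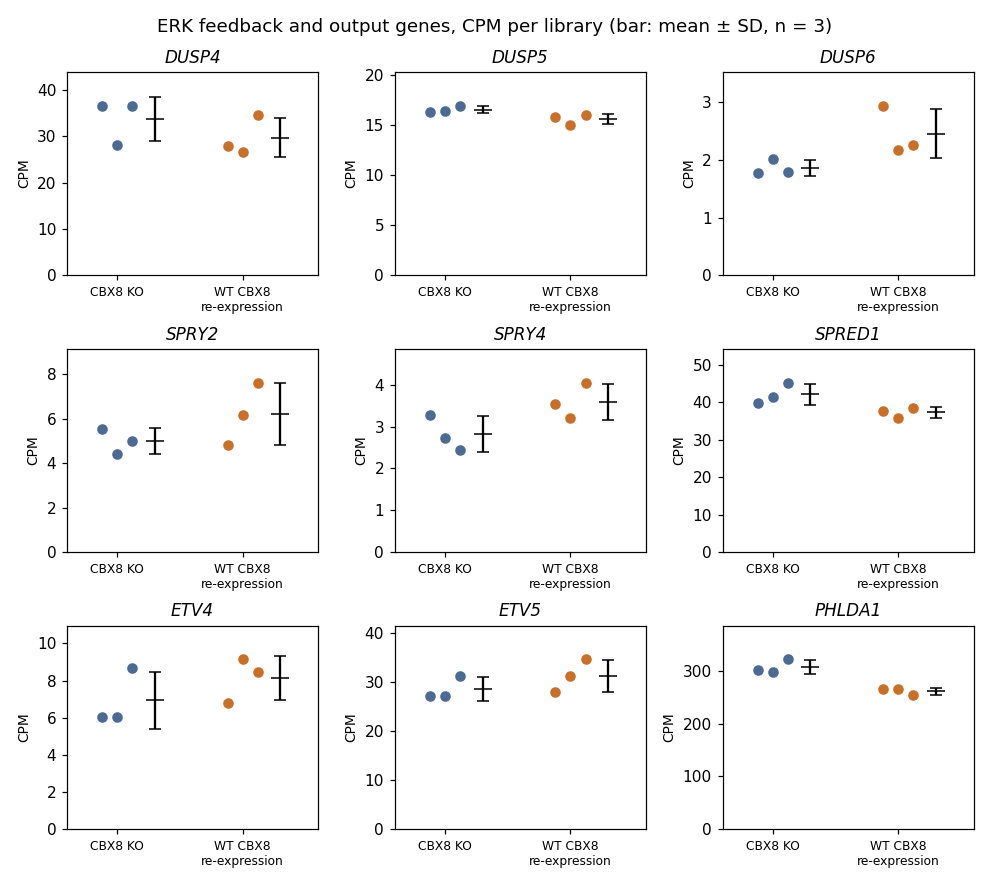
Level of the 9 tested members in each library, in CPM on a linear axis from 0. Points are libraries and black bars give the mean ± SD (n = 3). PHLDA1 is at 254 to 266 CPM upon re-expression and 298 to 321 CPM in CBX8 KO, while the points of DUSP4, SPRY2, SPRY4, ETV4 and ETV5 overlap between conditions.

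The promoter windows in RefSeq (GRCh38.p14, 250 bases before to 50 after the start) were available for 5 of the 10 members (PHLDA1, DUSP6, SPRY2, SPRY4 and SPRED1). Polycomb complexes are known for binding at promoters dense in CpG, and these windows held between 19 and 32 CpG, against a median of 26 over 9726 promoters of tested genes. The 250 bases upstream of the start are shown 5′ to 3′ for PHLDA1, the member that fell, and for the members with the fewest (DUSP6) and the most (SPRED1) CpG upstream. Capitals mark the CpG dinucleotides, which number 26, 16 and 30.
PHLDA1, chr12:76031777-76032026, minus strand: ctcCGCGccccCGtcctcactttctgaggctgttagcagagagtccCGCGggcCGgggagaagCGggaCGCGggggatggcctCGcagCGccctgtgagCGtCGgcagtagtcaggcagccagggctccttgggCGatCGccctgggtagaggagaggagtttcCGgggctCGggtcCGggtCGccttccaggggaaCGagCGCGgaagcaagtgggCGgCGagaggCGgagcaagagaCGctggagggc
DUSP6, chr12:89352502-89352751, minus strand: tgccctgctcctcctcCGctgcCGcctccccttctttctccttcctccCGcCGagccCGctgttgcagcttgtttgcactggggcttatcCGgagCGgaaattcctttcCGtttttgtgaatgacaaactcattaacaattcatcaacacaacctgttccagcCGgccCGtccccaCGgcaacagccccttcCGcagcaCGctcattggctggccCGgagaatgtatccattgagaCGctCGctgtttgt
SPRED1, chr15:38252586-38252835, plus strand: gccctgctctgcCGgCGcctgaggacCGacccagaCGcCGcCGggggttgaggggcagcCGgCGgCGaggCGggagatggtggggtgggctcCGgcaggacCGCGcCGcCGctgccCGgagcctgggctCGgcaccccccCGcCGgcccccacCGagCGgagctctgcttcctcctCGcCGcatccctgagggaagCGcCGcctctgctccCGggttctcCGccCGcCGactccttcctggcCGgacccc
The full windows held 32 CpG for PHLDA1, 32 for SPRED1, 30 for SPRY2, 26 for SPRY4 and 19 for DUSP6. None of the 5 windows held, on either strand, the cyclic AMP response element TGACGTCA, the AP-1 site TGACTCA, the ETS site CCGGAAGT, the octamers TGAATGAA or TGAATGGA bound by the ETV repressor CIC, the SP1 site GGGGCGGGG or a CArG box of the serum response factor. Over the 9726 promoters, these were present in 3.3%, 3.13%, 9.2%, 1.23%, 0.555%, 27.8% and 1.06%, and their absence here says only that these letters are not in the window.

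Among the phosphatases, DUSP4 and DUSP5 act on ERK in the nucleus and DUSP6 in the cytoplasm. DUSP4 (chromosome 8 from 29333064 to 29350684) had 36.6, 28.2 and 36.5 CPM in the KO libraries and 28.0, 26.6 and 34.6 CPM upon re-expression. One library of each condition stood apart from its own group, and the ranges overlapped. The log2 fold change was -0.18 (95% interval -0.40 to 0.04, edgeR adjusted p = 0.317), and it ranged from -0.31 to -0.10 when 1 library was left out. DUSP5 (chromosome 10 from 110497907 to 110511533) had the smallest coefficient of variation of the 9 members in CBX8 KO (1.97%). It had 16.3, 16.4 and 16.9 CPM in the KO libraries and 15.75, 14.97 and 15.95 CPM upon re-expression. The 3 re-expression libraries lay below the 3 KO libraries by a narrow margin. Its log2 fold change of -0.09 (95% interval -0.30 to 0.13, edgeR adjusted p = 0.669) did not pass. Groups without overlap, lower upon re-expression, were seen for 3 of the 9 members (DUSP5, SPRED1 and PHLDA1) and for 14.4% of all genes tested, and groups without overlap in the higher direction for 1 member (DUSP6) and likewise 14.4% of all genes (4 of 9 members against 28.9% in either direction).

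DUSP6, whose transcript is often taken as the most direct readout of ERK activity, had few counts. It had 14, 17 and 14 counts in CBX8 KO and 25, 19 and 19 counts upon re-expression, or 1.77, 2.02 and 1.79 CPM against 2.94, 2.17 and 2.26 CPM. Every re-expression library was above every KO library, replicate 2 by the smallest margin. The log2 fold change was 0.40 (95% interval -0.20 to 0.99, edgeR adjusted p = 0.427). The summed counts were 45 and 63, a ratio of 1.32 after scaling, with an exact binomial 95% interval of 0.885 to 1.98 that covers counting error only. The fitted change of DUSP6 was not called, and the interval of its fitted fold change reached from 0.872 to 1.99. Whether deeper sequencing would alter this was not tested. The gene is on chromosome 12 from 89347235 to 89352501, and an unnamed antisense gene overlaps its exons.

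SPRY2 and SPRY4 inhibit the signal between receptors and RAF, and SPRED1 recruits the RAS inhibitor neurofibromin to the membrane. SPRY2 (chromosome 13 from 80335976 to 80341126) had 5.55, 4.396 and 4.99 CPM in the KO libraries and 4.82, 6.17 and 7.62 CPM upon re-expression. WT CBX8 re-expression replicate 1 lay inside the KO range, while replicates 2 and 3 were above it. The log2 fold change was 0.32 (95% interval -0.09 to 0.72, edgeR adjusted p = 0.334), and 0.14 without WT CBX8 re-expression replicate 3. SPRY4 (chromosome 5 from 142310427 to 142326455) had 3.28, 2.73 and 2.43 CPM in the KO libraries and 3.53, 3.20 and 4.05 CPM upon re-expression. Only the lowest re-expression library fell within the KO range. Its log2 fold change was 0.35 (95% interval -0.15 to 0.84, edgeR adjusted p = 0.400). Neither gene reached 100 counts in any library, and the upper ends of their fold change intervals were 1.65 for SPRY2 and 1.79 for SPRY4.

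SPRED1 (chromosome 15 from 38252836 to 38357249) had 39.9, 41.5 and 45.3 CPM in the KO libraries and 37.6, 35.9 and 38.6 CPM upon re-expression. The groups did not overlap. The log2 fold change of -0.18 had a 95% interval of -0.34 to -0.01 and an unadjusted p of 0.0362 from edgeR, and did not pass after adjustment over all genes (adjusted p = 0.161). Over the alternatives the adjusted p of SPRED1 stayed between 0.0902 and 0.418.

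ETV4 and ETV5 belong to the PEA3 group of ETS transcription factors. ETV4 (chromosome 17 from 43527844 to 43579620) had 6.06, 6.06 and 8.70 CPM in the KO libraries and 6.82, 9.14 and 8.45 CPM upon re-expression. CBX8 KO replicate 3 lay among the re-expression libraries. The log2 fold change was 0.23 (95% interval -0.12 to 0.59, edgeR adjusted p = 0.430). ETV5 (chromosome 3 from 186046314 to 186110318) had 27.3, 27.2 and 31.4 CPM in the KO libraries and 28.1, 31.2 and 34.6 CPM upon re-expression. The ranges overlapped, with the highest value in WT CBX8 re-expression replicate 3. Its log2 fold change was 0.13 (95% interval -0.07 to 0.33, edgeR adjusted p = 0.436). DHX8 overlaps exons of ETV4 on the opposite strand and DGKG overlaps exons of ETV5 on the same strand, so some reads may have been assigned either way. Neither partner passed the test, with log2 fold changes of 0.03 for DHX8 (edgeR adjusted p = 0.788) and 0.17 for DGKG (edgeR adjusted p = 0.432).

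**Figure D2:**
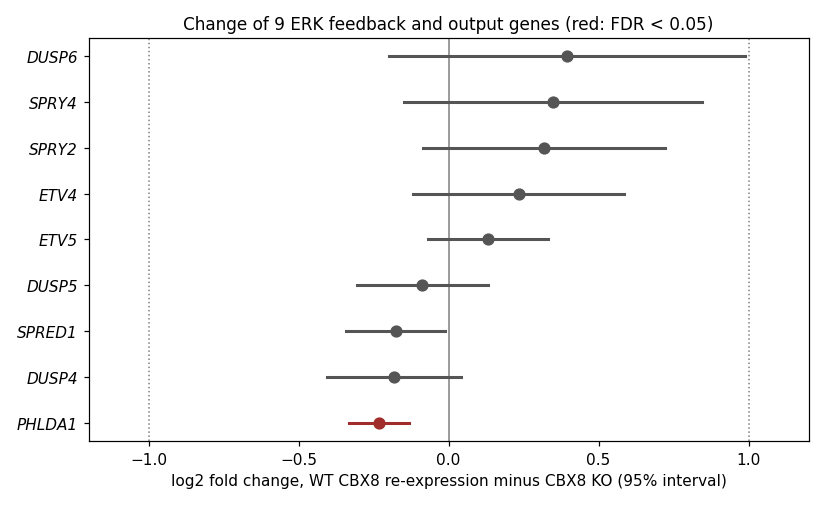
Log2 fold change of the 9 tested members, WT CBX8 re-expression minus CBX8 KO, with 95% intervals from edgeR's quasi-likelihood fit. Dotted lines mark a 2-fold change in either direction. PHLDA1 (-0.23, red) is the member that passed FDR < 0.05, and the interval of DUSP6 (-0.20 to 0.99) is the widest.

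Of the 9 tested members, 5 had a positive and 4 a negative log2 fold change, with a median of 0.13 against 0.005 over all genes tested. The 4 genes with fewer than 100 counts in every library (DUSP6, SPRY2, SPRY4 and ETV4) had the 4 highest fitted values, and all of them had intervals that included 0. The 5 genes above 100 counts in every library lay between -0.23 and 0.13. No member changed sign under any of the 18 alternatives, which included 3 other scalings.

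Levels of the members spread widely on a per-length scale, in CPM per kilobase of the canonical transcript. In CBX8 KO, PHLDA1 was at 51.9 ± 2.12, above ETV5 at 7.01 ± 0.583, DUSP5 at 6.67 ± 0.131, DUSP4 at 6.08 ± 0.871 and SPRED1 at 5.81 ± 0.384 (SD, n = 3 each). Each of these 4 lower levels overlapped in range with the next in CBX8 KO, while ETV5 lay above DUSP4 and SPRED1, and DUSP5 above SPRED1, in every KO library. ETV4 followed at 2.97 ± 0.654 and SPRY2 at 2.18 ± 0.253, without overlap in CBX8 KO, though their ranges overlapped upon re-expression. SPRY4 was at 0.574 ± 0.0879 and DUSP6 at 0.513 ± 0.0384 (SD, n = 3 each), with overlapping ranges. The order by mean was the same in both conditions. Compared with 12615 tested genes of known transcript length, the level of PHLDA1 was at percentile 88.4, that of SPRY4 at percentile 5.2 and that of DUSP6 at percentile 4.5.

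IER3, an immediate early gene of stress and growth factor responses, was listed at 0 in all 6 libraries, where a count of 0 allows up to 3 counts or at most 0.384 CPM in a library by counting error alone. The gene lies on chromosome 6 from 30743199 to 30744548, and its transcript has near-identical copies on 5 alternate contigs of hg38, whereas the other 9 members have none. The genes beside it were also nearly without counts. Of the 20 other protein-coding genes within 250 kb, 10 were at 0 in all libraries, and the highest, MDC1, had 49 counts summed over the 6 libraries. All 20 have copies on alternate contigs. They include TUBB, a widely expressed beta-tubulin, with 0 counts, and FLOT1, which encodes the broadly expressed membrane protein flotillin-1, with 1. Within 4 Mb of IER3, 4.38% of 160 genes with such copies had more than 100 summed counts, against 36.2% of 69 genes without copies. The 0 of IER3 is therefore not read as absence of its transcript, and the part of the copies in these low counts was not tested. The region was searched after IER3 was seen at 0.

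**Figure D3:**
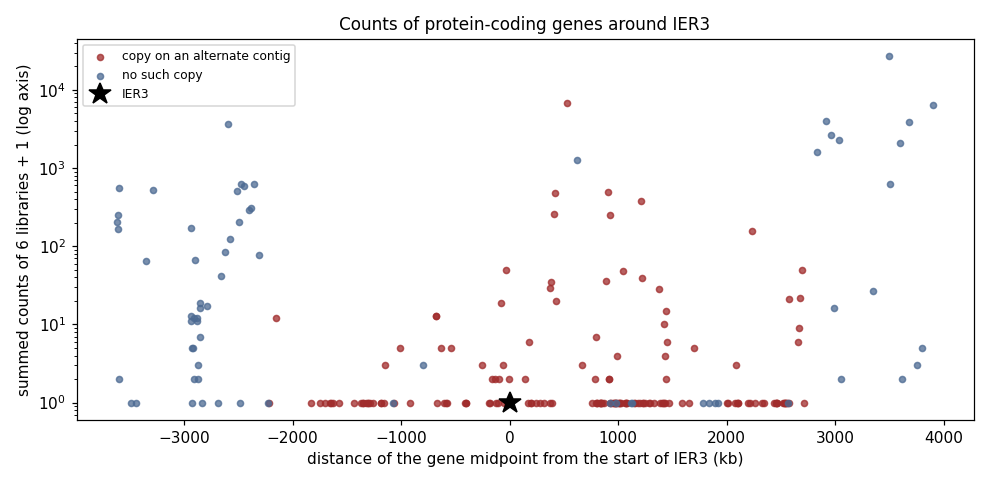
Summed counts of the 6 libraries plus 1, on a log axis, of protein-coding genes by distance of their midpoint from the start of IER3. Red points are genes whose transcript also matches an alternate contig, and blue points have no such match. IER3 (star) is at 0 counts amid red points that are mostly at 0.

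The rest of the pathway was examined through 6 lists of other genes, ordered from ligands to outputs. Of 104 list genes tested, 19 were called higher and 11 lower (28.8% called, against 12.9% of all genes tested). The lists were picked with knowledge of the pathway and of earlier results of these data, and their share was not tested against other genes. Without WT CBX8 re-expression replicate 2, 11 were called higher and 9 lower. Without replicate 3 of the same condition the numbers were 12 and 10.

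At the top of the pathway, 7 of 19 tested receptors and ligands rose, 1 fell and 11 did not pass (median log2 fold change 0.19). This list had 42.1% called against 12.9% of all genes tested, and its median compares with 0.005 for that full set. The ligands PDGFB, HBEGF and GAS6 rose. PDGFB, a ligand of the PDGF receptors, had 27, 25 and 28 counts in CBX8 KO and 67, 63 and 52 counts upon re-expression, and a log2 fold change of 1.09 with a standard error of 0.20 (edgeR adjusted p = 0.000315). HBEGF, a ligand of EGFR, went from 20.9 ± 0.812 to 31.3 ± 0.593 CPM (SD, n = 3 each), with edgeR adjusted p = 5.82e-05. GAS6, the ligand of AXL, rose by 0.66 on the log2 scale (edgeR adjusted p = 0.000209). An antisense gene, GAS6-AS1, overlaps its exons. The receptor EPHA4 fell by 0.28 (edgeR adjusted p = 0.00373, and 0.0552 without WT CBX8 re-expression replicate 2).

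In the cascade itself, 22 of 26 genes did not pass, 3 rose and 1 fell, with a median log2 fold change of 0.02. That is 15.4% called, close to the 12.9% of all genes tested. KSR1, a scaffold of the cascade, rose by 0.85 on the log2 scale (edgeR adjusted p = 0.00361), and RPS6KA3, a kinase activated by ERK, fell by 0.40 (edgeR adjusted p = 9.23e-05). Both calls held under all 18 alternatives. IQGAP1, another scaffold, rose by 0.17 (edgeR adjusted p = 0.0361). KSR1, RPS6KA3 and IQGAP1 were named after their values were seen, and unnamed genes overlap KSR1. Without CBX8 KO replicate 3 or re-expression replicates 2 or 3, and with DESeq2, 1 gene of the cascade (KSR1) was called higher. The kinase MAPK3 had a log2 fold change of 0.13 (edgeR adjusted p = 0.22). MAP2K1 and MAP2K2, which encode the MEK kinases, had log2 fold changes of -0.06 and -0.01 (edgeR adjusted p = 0.594 and 0.942). BRAF was called higher, at 0.35 (standard error 0.10, edgeR adjusted p = 0.0253). Its groups overlapped, and the adjusted p reached 0.14, 0.0689, 0.119 and 0.155 without CBX8 KO replicates 2 or 3 or re-expression replicates 2 or 3, and 0.0636 with DESeq2. Other genes overlap the exons of BRAF and MAP2K1 on the opposite strand.

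Of 6 other tested phosphatases of MAP kinases, 2 rose and 4 did not pass (33.3% called, against 12.9% of all genes tested). DUSP1, an immediate early phosphatase, rose by 0.60 on the log2 scale (edgeR adjusted p = 0.000371), with 13.5 ± 1.24 CPM in CBX8 KO against 20.5 ± 1.02 CPM (SD, n = 3 each). DUSP9 rose by 0.91 at a low level, from 16, 16 and 20 to 30, 38 and 36 counts (edgeR adjusted p = 0.0145). The DUSP9 call was lost with DESeq2 (adjusted p = 0.0865) and when CBX8 KO replicates 1 or 2 or re-expression replicates 2 or 3 were left out, with edgeR adjusted p between 0.0504 and 0.0782.

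Among the other Sprouty, SPRED and RAS brakes, 2 of 16 rose, 2 fell and 12 did not pass. That is 25% called, against 12.9% of all genes tested. SPRY1, a close relative of SPRY2 and SPRY4, fell. It had 10.9, 9.39 and 9.47 CPM in the KO libraries and 5.99, 5.26 and 6.07 CPM upon re-expression, and its log2 fold change was -0.78 with a standard error of 0.15 (edgeR adjusted p = 0.000838). Within a library, there were 0.512, 0.468 and 0.527 counts of SPRY2 per count of SPRY1 in CBX8 KO and 0.804, 1.17 and 1.25 upon re-expression. The ratio of counts needs no scaling between libraries. It was 1.08 higher on the log2 scale upon re-expression (-0.995 ± 0.0886 against 0.0813 ± 0.347, SD, n = 3 each), with no overlap between conditions and an exact permutation p of 0.1, the smallest that 3 against 3 allows. SPRY4 per SPRY1 went from 0.302, 0.291 and 0.257 to 0.588, 0.609 and 0.667 counts (difference 1.13 on the log2 scale, exact permutation p = 0.1). They are 2 of 5 such ratios computed, and all were chosen after values were seen. SPRY1 had itself been called lower (log2 fold change -0.78), whereas SPRY2 (0.32) and SPRY4 (0.35) did not pass. Most of both differences is therefore the fall of SPRY1. DUSP6 per DUSP4 differed by 0.57 on the log2 scale (exact permutation p = 0.2) and ETV5 per ETV4 by -0.11 (exact permutation p = 0.5), and the groups overlapped in both.

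The ubiquitin ligase CBL, which marks receptors for degradation, rose by 0.35 (edgeR adjusted p = 0.000716). PEA15, which holds ERK in the cytoplasm, rose by 0.17 (edgeR adjusted p = 0.0200), and ERRFI1, an inhibitor of EGFR, fell by 0.14 (edgeR adjusted p = 0.0483). Genes on the opposite strand overlap the exons of these 3. Calls of the last pair were lost without single libraries, PEA15 without CBX8 KO replicate 3 or re-expression replicates 2 or 3 (adjusted p up to 0.112), and ERRFI1 in every fit that left out a library except WT CBX8 re-expression replicate 1 (adjusted p up to 0.164). With library size as the only scaling, ERRFI1 had an adjusted p of 0.26.

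Of 13 ETS and ternary complex factors, which include relatives of ETV4 and ETV5, 0 were called higher by edgeR and 2 lower. That is 15.4% called, close to the 12.9% of all genes tested. At an unadjusted p under 0.05, 1 was higher and 4 were lower, against 1831 higher and 1831 lower of all 14461 genes tested. ETS2 fell by 0.26 (edgeR adjusted p = 0.00205) and ELF1 by 0.28 (edgeR adjusted p = 0.00526). ELF1 did not pass without CBX8 KO replicate 2 (adjusted p = 0.0665). An unnamed gene on the opposite strand overlaps ETS2. ETV1, a relative of ETV4 and ETV5 named after its values were seen, had a log2 fold change of -0.48. Its unadjusted p from edgeR was 0.0389, and it did not pass (adjusted p = 0.169).

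Other genes listed as outputs of ERK, not all of them induced by it, moved in both directions, with 5 higher and 5 lower of 24 tested. That is 41.7% called, against 12.9% of all genes tested. The 5 called higher became 3 without CBX8 KO replicates 1 or 2 or re-expression replicates 2 or 3, and with DESeq2, where PLAUR and IER2 were lost. IER2, an immediate early gene named after its values were seen, had an edgeR adjusted p of 0.0266, and unnamed genes overlap its exons on the opposite strand. EGR1, an immediate early transcription factor, rose from 73, 77 and 47 counts in CBX8 KO to 136, 143 and 145 counts upon re-expression (log2 fold change 1.02, standard error 0.14, edgeR adjusted p = 7.08e-06). EMP1, a membrane protein, rose by 0.49 (edgeR adjusted p = 6.24e-05). PLAUR, the urokinase receptor, rose by 0.29 (edgeR adjusted p = 0.0453). The PLAUR call did not survive removal of any single library, with adjusted p up to 0.131, and with DESeq2 (0.195).

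TFPI2, a protease inhibitor of the matrix, fell from 77.6, 79.8 and 76.8 CPM in CBX8 KO to 37.4, 38.6 and 42.0 CPM upon re-expression (log2 fold change -0.99, edgeR adjusted p = 3.19e-11). MYC fell by 0.56 (edgeR adjusted p = 3.47e-08) and HMGA1, a chromatin protein, by 0.41 (edgeR adjusted p = 3.83e-05). GNGT1 overlaps TFPI2 and CASC11 overlaps MYC on the opposite strand. In CBX8 KO there were 32.7, 32.6 and 53.4 counts of PHLDA1 per count of EGR1 against 16.6, 16.2 and 14.7 upon re-expression, a pair chosen after its values were seen. Most of this difference is the rise of EGR1 (log2 fold change 1.02, against -0.23 for PHLDA1).

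**Figure D4:**
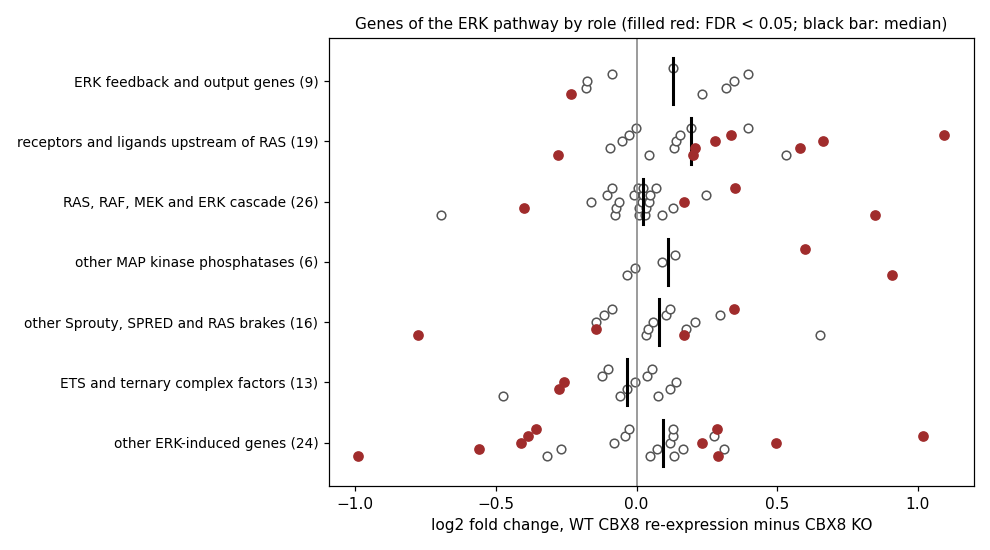
Log2 fold change, WT CBX8 re-expression minus CBX8 KO, of each tested gene in the 10 members (top row) and the 6 lists of other pathway genes, with the number tested in brackets. Filled red points passed FDR < 0.05 and black bars are medians. The cascade is centred at 0.02, whereas called genes of the last row lie from -0.99 (TFPI2) to 1.02 (EGR1).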

How the data were processed

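RNA-seq libraries (poly(A) RNA, 100 bp paired-end) were analysed from 6 samples, 3 per condition, grouped by their titles. The values deposited by the authors are raw counts of reads for each gene symbol. Per the submitters' notes, reads were trimmed with Trimmomatic and aligned with HISAT2 to hg38. Versions and the counting program, annotation and strand setting are not given in the sources used here. The labels do not say whether libraries come from separate cultures, so SD, n and p-values describe spread between libraries, and intervals from counts cover counting error only.

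In R 4.3.3, genes passing filterByExpr of edgeR 4.0.16 (14461 of 57133) were normalized by TMM and tested by glmQLFit and glmQLFTest with condition as the only term, as WT CBX8 re-expression minus CBX8 KO. The threshold was an FDR below 0.05 (Benjamini-Hochberg). Standard errors were derived from each log2 fold change and its F statistic, and 95% intervals use the fit's degrees of freedom. The test was also run on counts simulated from its own fitted model, which cannot show that the model fits these libraries. Symbols were matched to GENCODE release 44, and copies on 261 alternate contigs of hg38 were called where minimap2 matched at least 95% of a canonical transcript. Alternatives were run with DESeq2 1.42.0, limma voom (3.58.1) and edgeR.

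The members and lists were chosen with earlier results of these data known. Named are the members, CBX8, core genes of the cascade (some of which are not reported here), and up to 3 lowest and 3 highest called genes of each other list. The search around IER3, the promoter search and the ratios between genes were added after values were seen.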

Additional observations from a re-analysis of the deposited data

How the results depend on the processing

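The 9 tested members kept their direction and their side of the threshold under all 18 alternatives each (other scalings, filters, tests, the GC and length correction, the replicate block, FDR below 0.01 and 6 fits without 1 library). Of 540 fits of the 30 other called pathway genes, 474 kept the call, 66 lost it and 0 reversed. Pathway list genes called higher (19) became 12 at FDR below 0.01 and ranged from 11 to 19 without 1 library, lowest without WT CBX8 re-expression replicate 2. Pathway list genes called lower (11) ranged from 9 to 12 without 1 library and were 15 after the GC and length correction. Over all genes, the 901 called higher became 1400 with library size only, 501 with DESeq2 and 489 at FDR below 0.01, and 593 to 792 without 1 library. The 959 called lower became 592 with library size only, 1462 after the GC and length correction and 569 at FDR below 0.01, and 635 to 851 without 1 library. The share of calls that were lower thus depends on the scaling. The cause was not tested, except that a stricter threshold lowers counts by construction.

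Libraries with the same number did not deviate together (correlations -0.12, -0.09 and -0.10 over 11402 genes, and 0 of 6 libraries correlated best with their own number), and these numbers were treated as names only. With the replicate block, PHLDA1 was at -0.23 (adjusted p = 0.00889), 0 members were called higher and 1 lower, and 14 and 10 pathway list genes were called higher and lower.

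DUSP6, SPRY2, SPRY4 and ETV4 had fewer than 100 counts in every library. Whether depth kept them from being called was not tested. The longest transcript in place of the canonical one lowers the per-length level of SPRY2 in CBX8 KO to 1.84 and of SPRY4 to 0.526 CPM per kilobase. On that length, DUSP6 lay below SPRY4 in CBX8 KO (0.513) but above it upon re-expression (0.677 against 0.671). The order by mean was then not the same in both conditions.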
